A study of Mus musculus with 27 samples.

Results

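Mitochondrial complex I is built from nuclear genes whose symbols start with Nduf together with a few genes of the mitochondrial genome. All symbols of the probe annotation that start with Nduf were taken, from probe sets that name 1 gene, with the probe set of highest mean signal for each symbol. This gave 43 genes of the 19937 tested, from 48 probe sets. They comprise 11 subunits of the N module, 4 of the Q module, 10 of the proximal and 9 of the distal membrane arm, Ndufa4 and its paralogue Ndufa4l2, and 7 assembly factors. A further 3 Nduf probe sets name several genes and are described apart.

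Complex I, the NADH:ubiquinone oxidoreductase, is the main entry point of electrons into the respiratory chain. Its N module holds the flavin that oxidises NADH, its Q module hands the electrons to ubiquinone, and its membrane arm pumps protons across the inner mitochondrial membrane. Heart muscle is dense in mitochondria and depends on this chain for most of its ATP, and the assembly factors help to put the modules together without staying in the finished enzyme.

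The arrays measured RNA from pieces of 10 to 20 mg of heart of C57Bl/6J male littermates aged 10 to 12 weeks. One set of mice was sham-operated and the others had transverse aortic constriction (TAC), a suture around the aortic arch that left a pressure gradient of about 50 mmHg. Injections of DMSO vehicle or of JQ1, an inhibitor of BET bromodomain proteins, began 1.5 days later. There are 9 groups of 3 arrays: vehicle-injected sham hearts, vehicle-injected TAC hearts and JQ1-injected TAC hearts, each at days 3, 11 and 28. No group had sham surgery with JQ1, so each JQ1 difference is one between hearts with TAC. All 9 groups are whole tissue from mice with no transgene named in the labels, and in such tissue fewer cells of a type and less RNA per cell cannot be told apart. Beyond the word littermates nothing in the labels says that the 3 arrays of a group are separate animals, so p-values measure only the spread between these samples, which may be technical.

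The values are log2 signals, with array medians between 6.954 and 7.043 and correlations between arrays of 0.976 to 0.9977. The number of arrays limits the precision. The 14 cardiomyocyte markers, among them Myh6, Tnnt2 and Ryr2, had mean log2 signals between 13.13 and 13.29 in every array, which fits the label heart. Changes below are log2 differences ± standard error from a moderated linear fit (limma) to all 27 arrays, and a gene is called at an adjusted p under 0.05 (Benjamini-Hochberg over the 19937 genes).

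Promoter sequences show what some of these genes share apart from their names. RefSeq promoter windows (GRCm38.p6, from 250 bases before to 50 after the start site) matched 38 of the 43 genes, and 4 motifs were searched on both strands. The letters ATGGCGG, known as a YY1 motif, stood in 9 of the 38 (23.7%), against 4.69% of 27025 genes and 6.05% of 17492 protein-coding genes. They are shown with up to 10 bases on either side, on the gene's strand, with the motif in capitals. YY1 is a factor known to act on mitochondrial genes.
Ndufa1 (chrX:37191382-37191408, minus strand): gaaagttgctCCGCCATttagagatcc
Ndufa5 (chr6:24527530-24527556, minus strand): ggacgctgtcATGGCGGgcttgctgaa
Ndufa7 (chr17:33824464-33824490, plus strand): cgtgtccatgATGGCGGcgatctggcg
Ndufa9 (chr6:126849096-126849122, minus strand): gtgggagaagATGGCGGccgccgtccg
Ndufaf7 (chr17:78937019-78937045, plus strand): gtcggccgacATGGCGGgctggacacg
Ndufb5 (chr3:32737072-32737098, plus strand): cggtgtagccATGGCGGccatgagcct
Ndufs4 (chr13:114388045-114388066, minus strand): ctacaggaagATGGCGGcggtc
Ndufs6 (chr13:73328433-73328456, minus strand): caccggcaagATGGCGGcggtgct
Ndufs7 (chr10:80249466-80249492, plus strand): cgaggccaagATGGCGGcgctggcggg

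In Ndufa9, Ndufb5, Ndufs4, Ndufs6 and Ndufs7 the match lay after the annotated start site, between bases 19 and 44. The motif starts with the letters of a start codon, and whether any of the matches printed above are start codons was not examined. Their share therefore cannot be read as a share of YY1 sites. YY1 itself was not called after TAC or with JQ1 at day 11 (−0.02 and −0.12, adjusted p = 0.935 and 0.244). A match is a description and not a bound site.

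The second motif, GCATGCGC, is that of NRF1, a factor of respiratory chain genes. It stood in 5 of the 38 windows (13.2%), against 3.05% of all genes and 3.94% of protein-coding genes. Matches on opposite strands that overlap each other are printed as 1 run of capitals, and a further match in the Ndufaf4 window, at bases 1 to 8 from the start site, is not printed.
Ndufa11 (chr17:56717692-56717721, plus strand): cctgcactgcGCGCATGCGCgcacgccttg
Ndufa6 (chr15:82354357-82354384, minus strand): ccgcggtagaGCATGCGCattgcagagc
Ndufa8 (chr2:36049329-36049356, minus strand): cgctggagacGCATGCGCagatggtacc
Ndufaf4 (chr4:24897960-24897989, plus strand): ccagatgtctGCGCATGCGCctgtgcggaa
Ndufaf5 (chr2:140170652-140170681, plus strand): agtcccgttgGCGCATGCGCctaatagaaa

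The ETS motif CCGGAAG was in 5 of the 38 windows (13.2%), against 9.93% of all genes and 12.9% of protein-coding genes, a share near the background. AAGGTCA, the motif of oestrogen-related receptors, was in 2 (Ndufb2 and Ndufs5, 5.26%), against 5.38% and 4.73%. The 120 bases before the start site of Ndufs3, a core subunit of the Q module, carry an ETS match in capitals.
Ndufs3 (chr2:90904722-90904841, minus strand): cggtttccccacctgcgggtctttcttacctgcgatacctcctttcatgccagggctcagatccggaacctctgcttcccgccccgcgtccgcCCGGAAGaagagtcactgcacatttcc

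Across the 27 arrays the genes moved by small amounts, and most of them lay below the sham mean of their day after TAC. At day 11 the 3 TAC vehicle arrays had 43, 42 and 41 of the 43 genes below the sham mean, with array medians of −0.16, −0.21 and −0.15. At day 3 these numbers were 32, 40 and 39 genes, with medians of −0.07, −0.19 and −0.17. At day 28 they were 35, 29 and 35 genes, with medians of −0.10, −0.05 and −0.12. The median change over all genes after TAC was −0.03, 0.01 and −0.05 at days 3, 11 and 28. No share of all genes below sham is given per array, so the day 28 numbers are not shown to be particular to the Nduf genes. The JQ1 arrays had 32, 35 and 36 of the 43 genes below sham at day 3, 20, 31 and 30 at day 11, and 28, 25 and 19 at day 28.

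**Figure D1:**
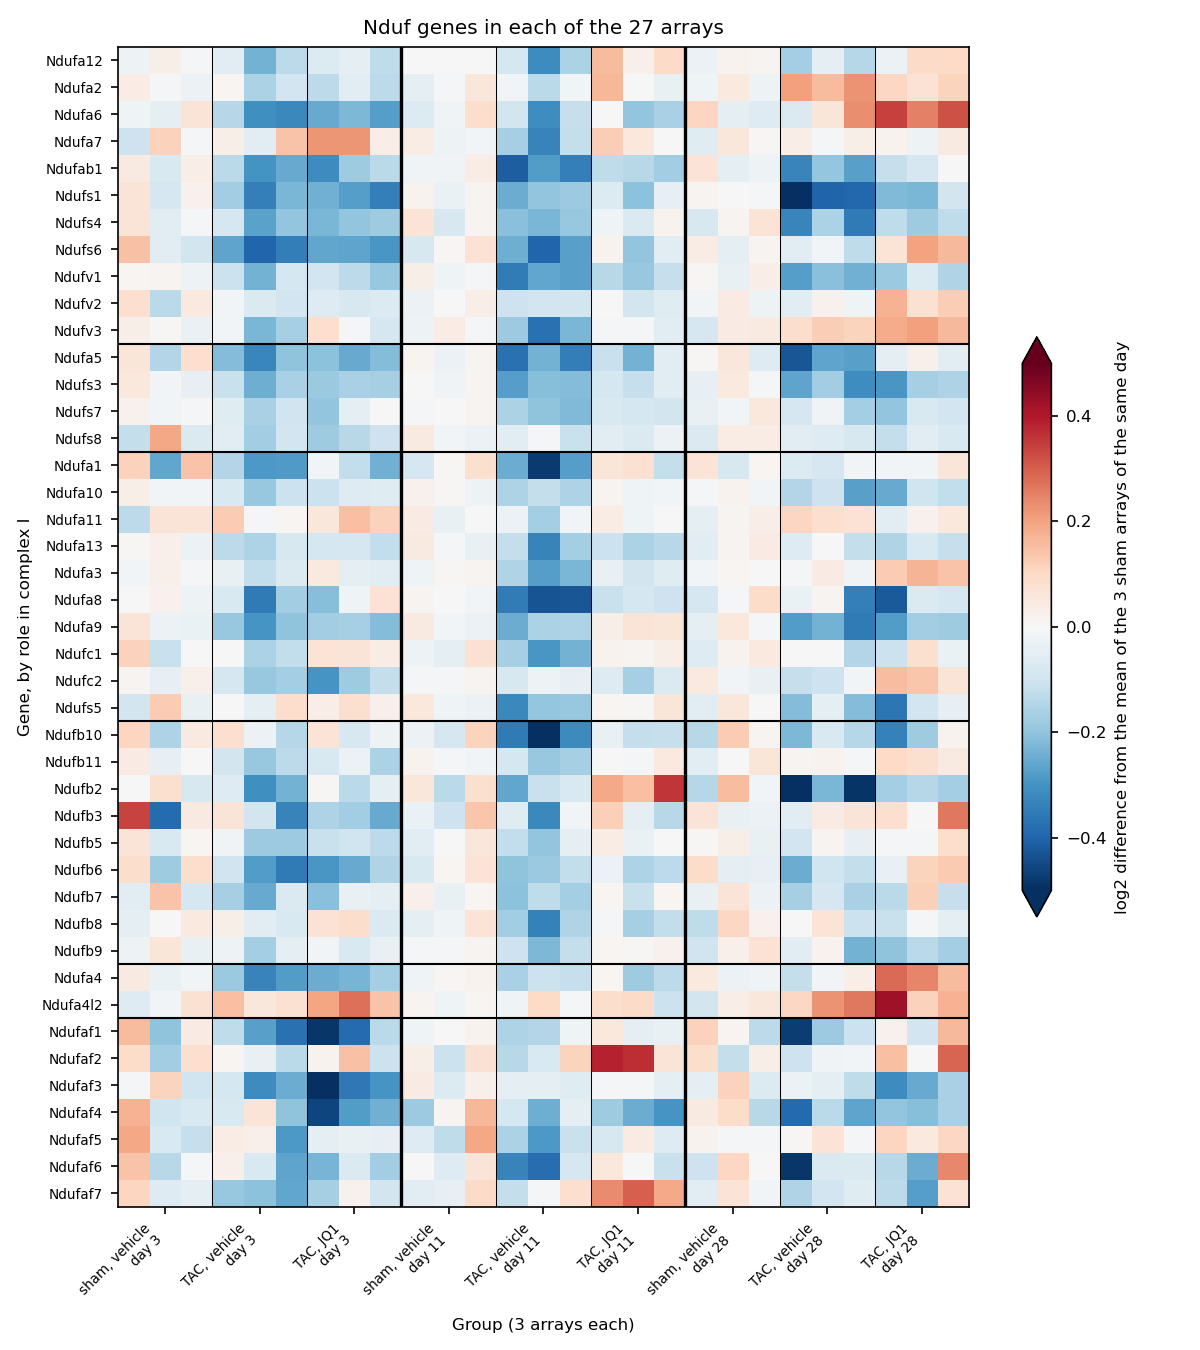
Difference of each Nduf gene (rows, grouped by role) from the mean of the 3 sham arrays of its day, on the log2 scale, in each of the 27 arrays (columns, 3 per group). Nearly all Nduf genes were below sham in the TAC vehicle arrays of day 11 (43, 42 and 41 of 43), where the median change over all genes was 0.01. The pattern was mixed at day 28.

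At day 3, TAC lowered 6 of the 43 genes and raised none, in a comparison in which 7.55% of all genes were called (3.33% lower and 4.22% higher). The 6 were Ndufs6, Ndufab1 and Ndufs1 of the N module, Ndufa5 of the Q module, Ndufa9 of the proximal arm, and Ndufa4. The median change of the 43 was −0.14, against −0.03 over all genes. The 3 TAC arrays lay wholly below the 3 sham arrays in 19 of the 43 genes (11.9% of all genes) and wholly above them in 0 (9.7% of all genes).

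Ndufs6, an accessory subunit of the N module needed for late assembly, had log2 signals of 11.28, 11.08 and 11.05 in sham hearts and 10.87, 10.74 and 10.79 after TAC. It fell by 0.33 ± 0.07 (1.26-fold, adjusted p = 0.00437). Every TAC array was below every sham array, although sham replicate 1 stood above the other two. Ndufa4, first described in complex I and since assigned to cytochrome c oxidase, read 12.24, 12.16 and 12.18 in sham and 12.01, 11.86 and 11.92 after TAC. Its change was −0.27 ± 0.06 (adjusted p = 0.00717), with no overlap of arrays. Ndufa9, an accessory subunit at the junction of the arms, read 12.17, 12.08 and 12.08 in sham and 11.92, 11.82 and 11.91 after TAC, a change of −0.23 ± 0.06 (adjusted p = 0.0128). The groups were again apart.

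The day 3 count rested on single arrays. It was 1 without TAC vehicle replicate 2, which had the lowest median of the 3, and 10 without TAC vehicle replicate 1. Leaving out sham replicate 1 gave 2, and leaving out sham replicate 3 gave 3. It was 0 when the spread came only from the 6 arrays compared. The calls of Ndufa4 and Ndufa9 were among those lost without TAC vehicle replicate 2, and that of Ndufa9 was also lost without sham replicate 1.

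At day 11, TAC lowered 18 of the 43 genes and raised none, while 15.5% of all genes were called (7.73% lower and 7.8% higher). All 18 were structural subunits. They made up 6 of 11 in the N module (Ndufab1, Ndufv1, Ndufs6, Ndufv3, Ndufs1 and Ndufs4), 3 of 4 in the Q module (Ndufa5, Ndufs3 and Ndufs7), 7 of 10 in the proximal arm (Ndufa3, Ndufa8, Ndufa1, Ndufa13, Ndufc1, Ndufa9 and Ndufs5) and 2 of 9 in the distal arm (Ndufb10 and Ndufb8). None of the 7 assembly factors was called. The median change was −0.19, against 0.01 over all genes, and the arrays were wholly below sham in 31 genes (16.6% of all genes) and wholly above in 0 (16.8% of all genes).

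Ndufab1, the mitochondrial acyl carrier protein that also sits in complex I, read 11.13, 11.13 and 11.19 in sham hearts and 10.74, 10.87 and 10.81 after TAC. It fell by 0.34 ± 0.06 (1.27-fold, adjusted p = 0.000522). Ndufv1, which carries the flavin and the NADH site, read 12.35, 12.30 and 12.31 in sham and 11.97, 12.06 and 12.05 after TAC, a change of −0.29 ± 0.06 (adjusted p = 0.000551). In both genes the gap between the groups was larger than the range within either. Ndufa5, an accessory subunit of the Q module, read 10.46, 10.42 and 10.46 in sham and 10.07, 10.21 and 10.10 after TAC, a change of −0.32 ± 0.07 (adjusted p = 0.00226).

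The largest changes of the day were in subunits of the membrane arm. Ndufb10, of the distal arm, went from 9.55, 9.50 and 9.69 to 9.23, 9.01 and 9.27, a change of −0.41 ± 0.10 (1.33-fold, adjusted p = 0.00357). Ndufa8, of the proximal arm, went from 12.13, 12.12 and 12.10 to 11.76, 11.68 and 11.69, a change of −0.40 ± 0.10 (adjusted p = 0.00469). Neither gene had overlapping arrays. The smallest changes among the structural subunits were those of Ndufc2 (−0.05), Ndufa2 (−0.05) and Ndufs8 (−0.06), which were not called.

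The day 11 count was 9 without TAC vehicle replicate 2, 11 without sham replicate 1, 11 without sham replicate 3 and 9 with only the 6 arrays compared. In all the alternatives run, 7 of the 18 calls were kept: Ndufa5, Ndufa8, Ndufab1, Ndufb10, Ndufs3, Ndufs6 and Ndufv1.

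**Figure D2:**
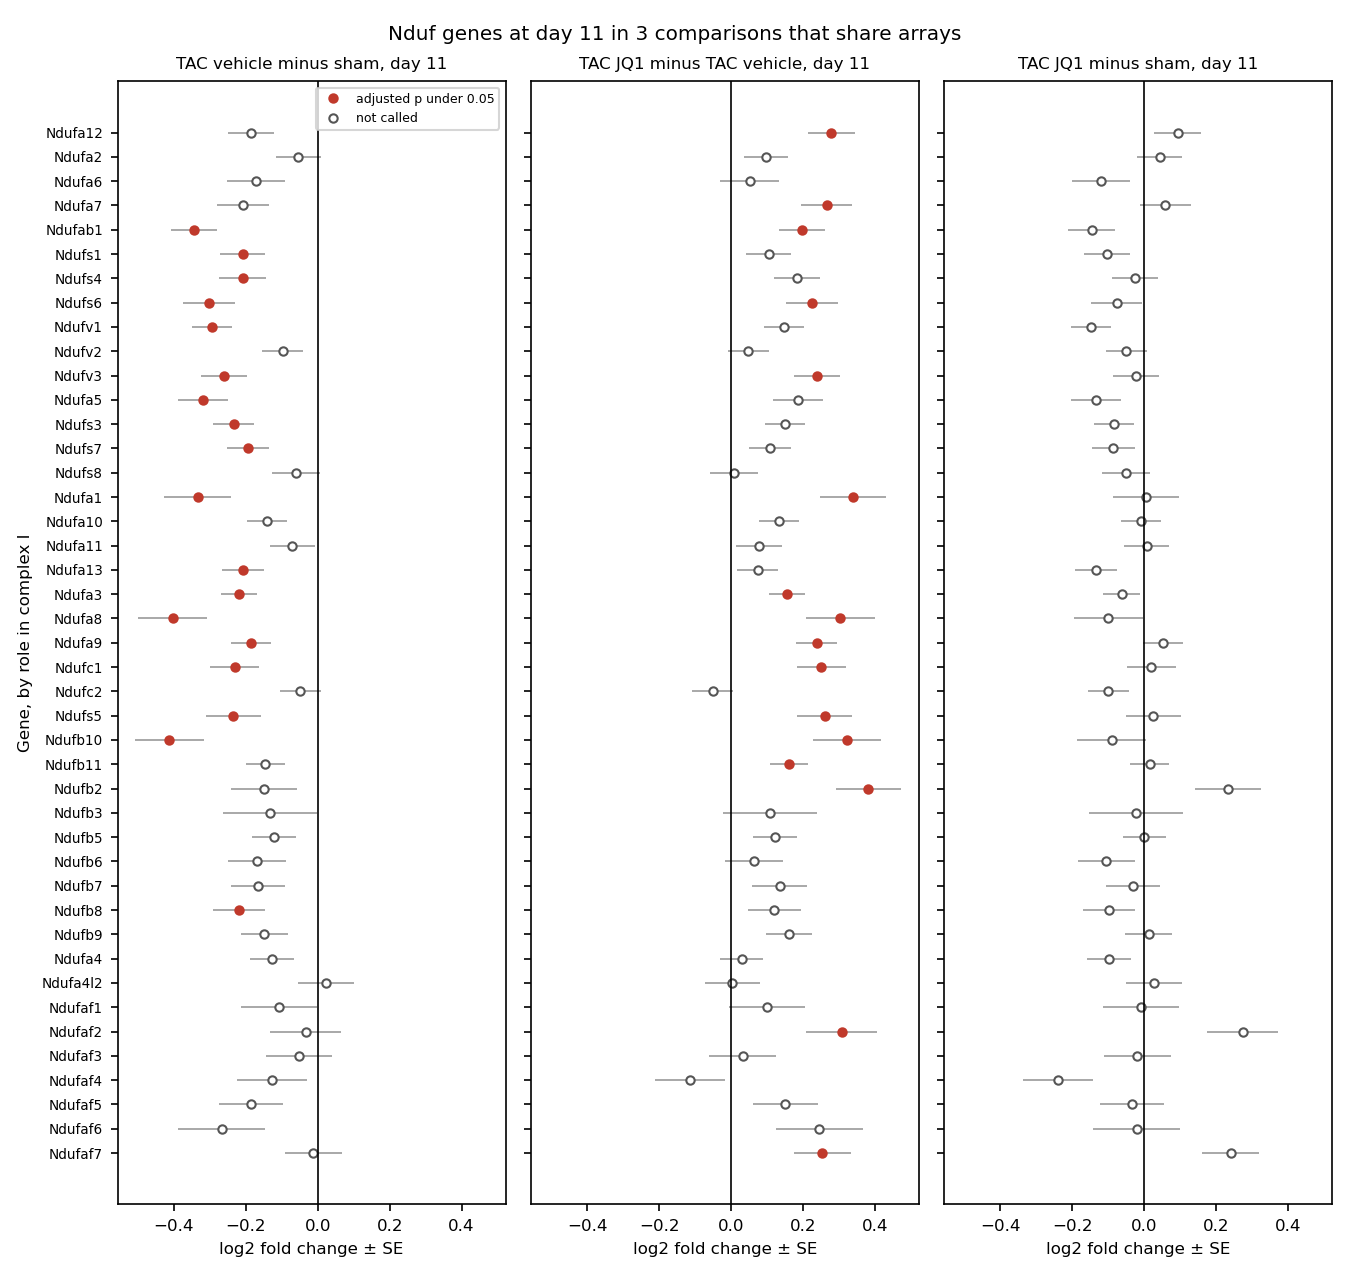
Log2 fold change ± standard error of the 43 Nduf genes at day 11 in 3 comparisons that share arrays; filled points were called and open points were not. The 18 called genes of the first panel lie left of 0, the 16 called genes of the second lie right of 0, and the third has 0 called.

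At day 28, TAC lowered 9 of the 43 genes and raised 1, against 15.1% of all genes called (6.98% lower and 8.13% higher). The lower ones were Ndufs1, Ndufv1, Ndufs4 and Ndufab1 of the N module, Ndufa5 and Ndufs3 of the Q module, Ndufa9 and Ndufa10 of the proximal arm, and Ndufb2 of the distal arm. The median of the 43 was −0.08 against −0.05 over all genes, so the typical member differed little from the typical gene. Arrays were wholly below sham in 13 genes (21.1% of all genes) and wholly above in 4 (16.6% of all genes).

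Ndufs1, the large iron-sulfur subunit that takes electrons on from the flavin, had the largest fall of any Nduf gene. It read 12.18, 12.17 and 12.16 in sham hearts and 11.67, 11.77 and 11.78 after TAC, and fell by 0.43 ± 0.06 (1.35-fold, adjusted p = 4.57e-05). The gap between the groups was larger than the range within either. Ndufa9 read 12.07, 12.17 and 12.11 in sham and 11.84, 11.88 and 11.76 after TAC (−0.29 ± 0.06, adjusted p = 0.000902). Ndufa5 read 10.37, 10.41 and 10.29 in sham and 9.93, 10.10 and 10.09 after TAC (−0.32 ± 0.07, adjusted p = 0.00235). Ndufb2, a small subunit of the distal arm, read 9.46, 9.76 and 9.59 in sham and 9.09, 9.38 and 9.11 after TAC (−0.41 ± 0.09, adjusted p = 0.00291). None of the 3 had overlapping arrays, though TAC vehicle replicate 2 lay close to the lowest sham array in Ndufb2.

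Ndufa2, an accessory subunit of the N module, was the 1 called gene that changed against the other called genes. It read 10.76, 10.83 and 10.76 in sham hearts and 10.98, 10.94 and 11.00 after TAC, a rise of 0.20 ± 0.06 (adjusted p = 0.0335). The arrays did not overlap, but the call was lost when sham replicate 1 or 3 or TAC vehicle replicate 1 or 3 was left out, after median centring, and with only the 6 arrays compared. The rest of the day 28 result was steadier, with counts of 8 to 11 when single arrays were left out, and 8 of the 10 calls kept in all the alternatives run.

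Over the 3 days, Ndufs1, Ndufab1, Ndufa5 and Ndufa9 were lower after TAC at each of them. A further 4 genes (Ndufs3, Ndufs4, Ndufs6 and Ndufv1) were called lower at 2 days, 13 at 1 day and 22 at none. Of all genes 3.33%, 7.73% and 6.98% were called lower at days 3, 11 and 28. Changes were negative at all 3 days in 32 of the 43 and positive at all 3 in 1, Ndufa4l2. The medians over all genes were −0.03, 0.01 and −0.05, and no share of all genes is given for these counts over days. In the mean of the 3 days 29 of the 43 were lower and 0 higher, with 25.9% of all genes called (12.9% lower and 13% higher) and a median of −0.13 against −0.03. The smallest adjusted p-values of this mean were those of Ndufs1 (−0.30 ± 0.04, adjusted p = 1.12e-06), Ndufab1 (−0.28 ± 0.04, 3.29e-06) and Ndufa5 (−0.30 ± 0.04, 4.52e-06). By role, 6 of 11 N module, 3 of 4 Q module, 9 of 10 proximal and 7 of 9 distal subunits were lower in the mean, with Ndufa4 and the 3 assembly factors Ndufaf1, Ndufaf4 and Ndufaf6.

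Whether the TAC change of a gene differed between days was tested by itself. Among the 43 genes 0 were called by limma's F test (9 had an unadjusted p under 0.05, and the lowest adjusted p was 0.0715, for Ndufv3), against 1.31% of all genes. Ndufv3 changed by −0.26 at day 11 and by 0.11 at day 28. Without TAC vehicle replicate 1 of day 3 the count was 1, and with array weights 3. The different numbers called on the 3 days are therefore not shown to be different changes.

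**Figure D3:**
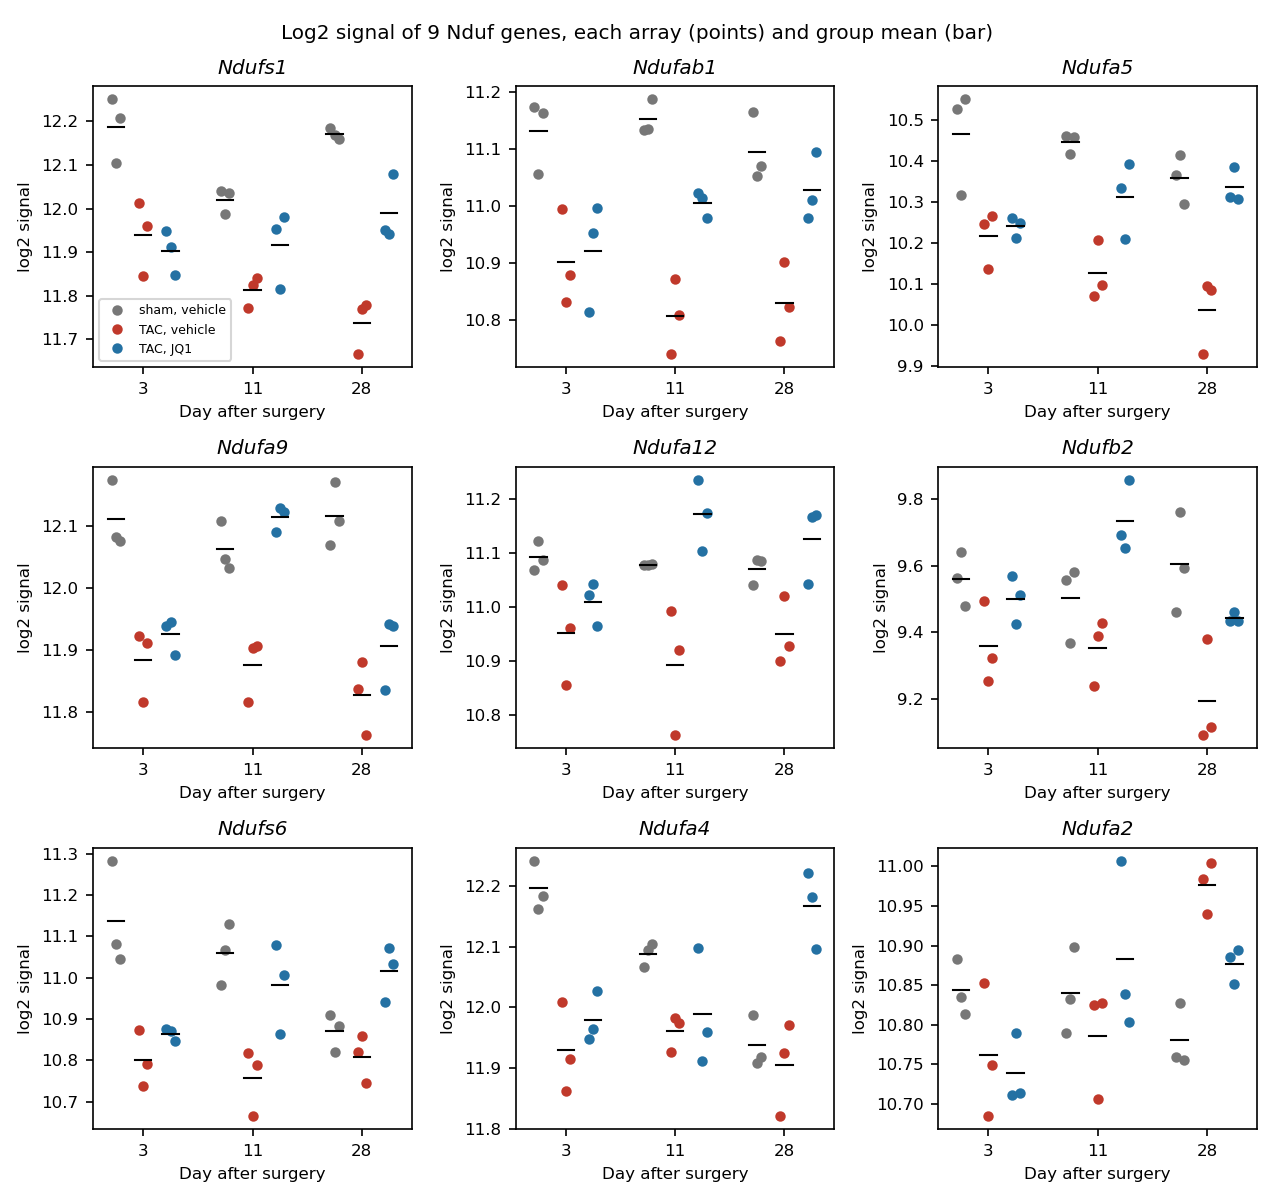
Log2 signal of 9 Nduf genes in every array (points) with the group mean (bar), by day and group. Ndufs1, Ndufab1, Ndufa5 and Ndufa9 have all TAC vehicle arrays below all sham arrays at each day, while Ndufa2 has them above at day 28; vertical scales differ between genes.

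JQ1 was then compared with vehicle in hearts with TAC. These comparisons use the same TAC vehicle arrays as those above, so an array that happens to read low moves both, in opposite directions, and the 2 sets of values are given side by side only. At day 3, with injections begun at 1.5 days, 0 of the 43 genes were called by limma (4 had an unadjusted p under 0.05), while 11.9% of all genes were (7.61% lower and 4.28% higher). The median change was 0.03 against 0.02 over all genes. Arrays were apart in 1 gene downward (12% of all genes) and 2 upward (11%), and the count was 1 with array weights, without the dimmest genes, or without JQ1 replicate 3.

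For the genes that TAC lowered at day 3, the 95% intervals of the JQ1 difference were as follows. That of Ndufs1 ran from −0.17 to 0.09 around −0.04, that of Ndufab1 from −0.11 to 0.15 around 0.02, and that of Ndufs6 from −0.08 to 0.21 around 0.06. That of Ndufa5 ran from −0.12 to 0.17 around 0.02, that of Ndufa9 from −0.07 to 0.16 around 0.04, and that of Ndufa4 from −0.08 to 0.18 around 0.05. The genes nearest a call were 2 factors that act together in assembling the Q module, Ndufaf3 (−0.26 ± 0.09, adjusted p = 0.0735) and Ndufaf4 (−0.26 ± 0.10, adjusted p = 0.0964).

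At day 11, 16 of the 43 genes were higher with JQ1 and none lower, against 16% of all genes called (7.52% higher and 8.43% lower). They were 5 subunits of the N module (Ndufa12, Ndufv3, Ndufa7, Ndufs6 and Ndufab1), 6 of the proximal arm (Ndufa9, Ndufa1, Ndufc1, Ndufs5, Ndufa8 and Ndufa3), 3 of the distal arm (Ndufb2, Ndufb10 and Ndufb11) and the assembly factors Ndufaf2 and Ndufaf7. None of the 4 Q module subunits was called. The median was 0.15, against −0.05 over all genes. Arrays were wholly above vehicle in 27 genes (16.8% of all genes) and wholly below in 0 (19.5%).

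Ndufa12, an accessory subunit between the N and Q modules, read 10.99, 10.76 and 10.92 in TAC vehicle hearts and 11.24, 11.11 and 11.18 with JQ1. The rise was 0.28 ± 0.06 (adjusted p = 0.00419), and the sham arrays of that day all read 11.08. Ndufa9 read 11.82, 11.90 and 11.91 with vehicle and 12.09, 12.13 and 12.12 with JQ1 (0.24 ± 0.06, adjusted p = 0.00492), beside sham arrays of 12.11, 12.05 and 12.03. Ndufb2 read 9.24, 9.39 and 9.43 with vehicle and 9.69, 9.65 and 9.86 with JQ1 (0.38 ± 0.09, adjusted p = 0.00534). Its JQ1 arrays were also above the sham arrays of 9.56, 9.37 and 9.58. In each of the 3 genes vehicle and JQ1 arrays were apart.

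The 5 genes with the largest fall after TAC at day 11 were Ndufb10, Ndufa8, Ndufab1, Ndufa1 and Ndufa5. They were picked on the same TAC vehicle arrays that the JQ1 differences use. The choice by itself therefore favours a rise with JQ1, and the values below do not show that JQ1 reversed the fall. Ndufab1 read 11.02, 11.01 and 10.98 with JQ1, between the vehicle and the sham arrays, a difference from vehicle of 0.20 ± 0.06 (adjusted p = 0.0372). Ndufb10 read 9.54, 9.46 and 9.47 (0.32 ± 0.10, adjusted p = 0.0228), and Ndufa8 read 12.00, 12.02 and 12.01 (0.30 ± 0.10, adjusted p = 0.0333). Ndufa1, a small subunit of the proximal arm, was higher by 0.34 ± 0.09 (adjusted p = 0.0136). In these 4 genes every JQ1 array was above every vehicle array, and Ndufa5 was not called (0.19 ± 0.07, adjusted p = 0.0732). Ndufv1 (0.15 ± 0.06, adjusted p = 0.0734) and Ndufs1 (0.10 ± 0.06, adjusted p = 0.291), which had smaller falls, were not called either. Ndufaf2, an assembly factor related to Ndufa12, was called although its arrays overlapped: JQ1 replicates 1 and 2 read 7.83 and 7.82 and replicate 3 read 7.51, beside 7.31, 7.37 and 7.56 with vehicle.

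The day 11 count with JQ1 was 5 without TAC vehicle replicate 2 and 5 without JQ1 replicate 1, 8 without JQ1 replicate 2, 10 without JQ1 replicate 3, 10 after quantile normalization and 8 with only the 6 arrays compared. The calls of Ndufa12, Ndufa9 and Ndufb2 were kept in all the alternatives run, and the other 13 were lost in at least 1.

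At day 28, 7 of the 43 genes were higher with JQ1 and none lower, against 19.6% of all genes called (7.16% higher and 12.4% lower). The median was 0.07 against 0.06 over all genes, and arrays were wholly above vehicle in 18 genes (18% of all genes) and wholly below in 3 (17%). The called genes were Ndufs1, Ndufab1, Ndufs6 and Ndufa6 of the N module, Ndufa5, Ndufc2 and Ndufa4. Ndufa4 read 11.82, 11.92 and 11.97 with vehicle and 12.22, 12.18 and 12.10 with JQ1 (0.26 ± 0.06, adjusted p = 0.00351). Ndufa5 read 9.93, 10.10 and 10.09 with vehicle and 10.31, 10.39 and 10.31 with JQ1 (0.30 ± 0.07, adjusted p = 0.00361). Ndufs1 read 11.67, 11.77 and 11.78 with vehicle and 11.95, 11.94 and 12.08 with JQ1 (0.25 ± 0.06, adjusted p = 0.00603). All 3 had arrays apart, but the JQ1 arrays of Ndufs1 were still below those of sham, whereas those of Ndufa5 lay within the sham range of 10.29 to 10.41.

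This was the least steady of the JQ1 counts above 0. It was 3 without TAC vehicle replicate 1 or JQ1 replicate 2, 4 without JQ1 replicate 3, 3 after median centring and 0 with only the 6 arrays compared, and 13 without the dimmest genes or with a trend in the prior. None of the 7 calls was kept in all the alternatives.

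In the mean of the 3 days 18 genes were higher with JQ1 and 0 lower, against 29.1% of all genes called (12.3% higher and 16.8% lower), with a median of 0.10 against 0.02. Ndufb2 (0.26 ± 0.05, adjusted p = 0.000482), Ndufa12 (0.17 ± 0.04, adjusted p = 0.000923) and Ndufa5 (0.17 ± 0.04, adjusted p = 0.00213) led them. By role these were 8 of 11 N module, 1 of 4 Q module, 4 of 10 proximal and 2 of 9 distal subunits, with Ndufa4, Ndufaf2 and Ndufaf7. A test of whether the JQ1 change differed between days called 0 of the 43 (9 at an unadjusted p under 0.05, lowest adjusted p 0.128, for Ndufc2, and 1.07% of all genes called). That count was 6 with array weights.

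JQ1-treated TAC hearts were also set against sham hearts, a comparison that shares its arrays with both of the others. At day 3, 14 of the 43 genes were lower and 0 higher (17.6% of all genes called, 10.7% lower and 6.94% higher), with a median of −0.10 against −0.01. Ndufaf3 (−0.48 ± 0.09, adjusted p = 0.000762), Ndufs1 (−0.29 ± 0.06, adjusted p = 0.00233) and Ndufs6 (−0.27 ± 0.07, adjusted p = 0.00904) led. This count was 2 without sham replicate 1, 7 without sham replicate 3, 5 without JQ1 replicate 1, 8 without JQ1 replicate 2 and 0 with only the 6 arrays compared.

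At day 11 the same comparison called 0 of the 43 genes by limma (7 at an unadjusted p under 0.05), while 10.5% of all genes were called (5.51% lower and 5.01% higher), and the median was −0.03 against −0.04. The JQ1 arrays were wholly below sham in Ndufa13, Ndufa3, Ndufa5, Ndufa8, Ndufab1, Ndufc2, Ndufs1, Ndufs3, Ndufs7, Ndufs8 and Ndufv1 (17.8% of all genes). They were wholly above in Ndufa12, Ndufaf7 and Ndufb2 (14.8% of all genes). The count of called members was 1 without sham replicate 3 or JQ1 replicate 3, 3 after quantile normalization and 6 with array weights. At day 28, 4 were lower (Ndufa9, Ndufs3, Ndufs1 and Ndufa10) and 5 higher (Ndufa4, Ndufa6, Ndufa4l2, Ndufv3 and Ndufa3), against 19.9% of all genes called (12.6% lower and 7.36% higher). Ndufa9 read 11.84, 11.94 and 11.94 with JQ1, below every sham array (−0.21 ± 0.06, adjusted p = 0.00863), and Ndufa4 at 12.22, 12.18 and 12.10 was above every one (0.23 ± 0.06, adjusted p = 0.00826). The 9 calls fell to 5 when sham replicate 1 or 3 was left out, to 2 without sham replicate 2 or JQ1 replicate 1, and to 1 with only the 6 arrays compared.

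Some members had patterns of their own. Ndufa4l2, a paralogue of Ndufa4 known to be induced in hypoxia, was not called after TAC at any day (0.09, 0.02 and 0.20, adjusted p = 0.601, 0.923 and 0.0908). At day 28 it read 7.66, 7.78 and 7.80 in sham, 7.85, 7.97 and 8.01 after TAC with vehicle and 8.17, 7.86 and 7.92 with JQ1. The JQ1 arrays were above sham (0.24 ± 0.08, adjusted p = 0.0297). Ndufa4 itself read 12.24, 12.16 and 12.18 in sham hearts of day 3, 12.07, 12.09 and 12.10 at day 11 and 11.99, 11.91 and 11.92 at day 28. The sham arrays did not overlap between days, but the test between days did not call it (adjusted p = 0.261, the lowest of the 43, where 0 were called, 6 had an unadjusted p under 0.05, and 0.0652% of all genes were called). With array weights 9 were called.

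The members with the highest mean signal were Ndufs7, a core iron-sulfur subunit of the Q module, and Ndufc2, of the proximal arm. Ndufs7 read 13.33, 13.34 and 13.35 in sham and 13.18, 13.14 and 13.12 after TAC at day 11 (−0.19 ± 0.06, adjusted p = 0.0256). Ndufc2 read 12.87, 12.88 and 12.97 with vehicle and 13.14, 13.13 and 13.05 with JQ1 at day 28 (0.20 ± 0.06, adjusted p = 0.0165). Both sets of arrays were apart. Those with the lowest mean signal were the assembly factors Ndufaf5, which hydroxylates Ndufs7, and Ndufaf6. Ndufaf6 read 7.50, 7.43 and 7.56 in sham and 7.16, 7.11 and 7.41 after TAC at day 11 (−0.27, adjusted p = 0.158), and Ndufaf5 read 7.30, 7.24 and 7.55 and then 7.20, 7.08 and 7.25 (−0.19, adjusted p = 0.193). Ndufaf6 spanned 7.01 to 7.42 among the 3 TAC vehicle arrays of day 28, a range wider than its day 11 difference.

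For 5 symbols a second probe set was present. At day 11 after TAC the second probe sets of Ndufab1 (−0.34), Ndufc1 (−0.29), Ndufb11 (−0.30) and Ndufs3 (−0.16) stood beside −0.34, −0.23, −0.15 and −0.23 in those used. Both of Ndufa11 were near 0 (−0.05 and −0.07). Of the 3 probe sets naming several genes, that of Ndufs5 and its pseudogene was at −0.28 after TAC and 0.29 with JQ1 at day 11. The 2 of Ndufb4 and Ndufb4b were at −0.37 and −0.19 after TAC and at 0.81 and 0.25 with JQ1. These near-identical copies cannot be separated here and are in no count.

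Of the genes with ATGGCGG in their promoter window, 6 of 9 were called lower after TAC at day 11 (median −0.21) and 11 of 29 without it (median −0.17). With JQ1 at day 11, 5 of 9 and 11 of 29 were higher. For GCATGCGC the numbers with and without it were 1 of 5 and 16 of 33 after TAC, and 1 of 5 and 15 of 33 with JQ1. For CCGGAAG they were 1 of 5 and 16 of 33, and 0 of 5 and 16 of 33. For AAGGTCA they were 1 of 2 and 16 of 36, and 2 of 2 and 14 of 36. Of all genes 7.73% were lower after TAC and 7.52% higher with JQ1 at day 11. These counts describe the genes and were not tested.

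The other respiratory complexes are given for comparison, as counts. After TAC at day 11, 18 of the 34 nuclear complex I subunits in the 4 modules were lower, 3 of 4 of complex II, 2 of 9 of complex III, 4 of 12 of complex IV (with 1 higher, Cox6a1 at 0.27) and 6 of 15 of the ATP synthase. Of all genes 7.73% were lower and 7.8% higher in that comparison. Sdhc of complex II (−0.41 ± 0.06, adjusted p = 7.4e-05), Uqcrc1 of complex III (−0.33), Cox7a1 of complex IV (−0.31) and Atp5k of the ATP synthase (−0.53) had the smallest adjusted p of their lists. With JQ1 at day 11 the numbers higher were 14 of 34, 2 of 4, 2 of 9, 3 of 12 and 2 of 15, beside 7.52% of all genes. At day 28 with JQ1, 6 of the 34 complex I subunits, 2 of 4 of complex II, 1 of 9 of complex III and 0 of the complex IV and ATP synthase genes were higher by limma (3 and 4 of these had an unadjusted p under 0.05), and Cox8a was lower (−0.23). Of all genes 7.16% were higher and 12.4% lower with JQ1 at day 28. Differences between complexes were not tested.

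**Figure D4:**
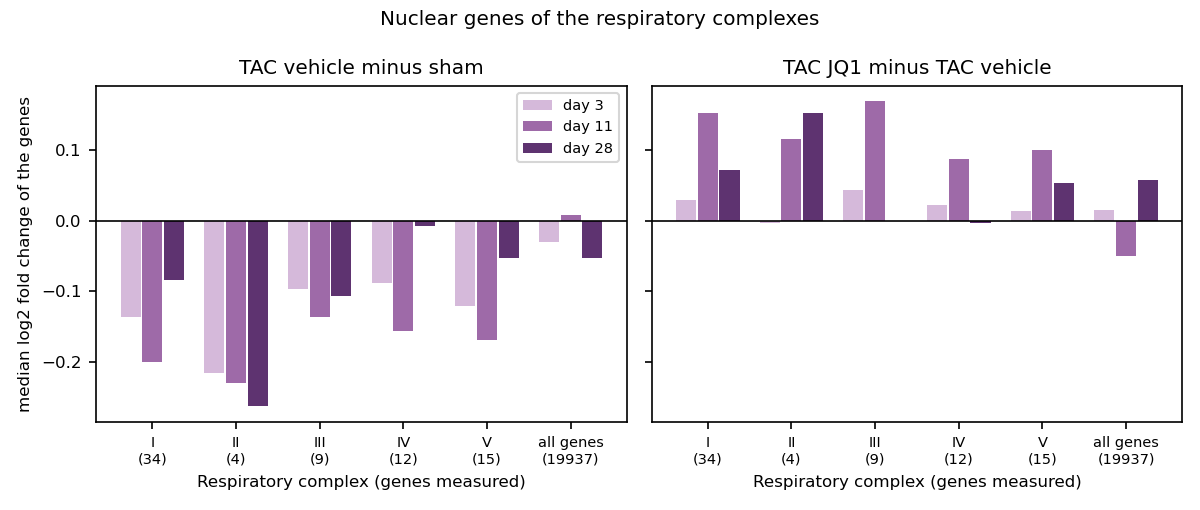
Median log2 fold change of the nuclear genes of complexes I to V and of all genes, at days 3, 11 and 28 (bars), for TAC against sham and JQ1 against vehicle, with the number of genes under each. At day 11 the medians of complexes I to V lay below 0 after TAC and above 0 with JQ1, while that of all genes was 0.01 and −0.05.

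Of the 11 assembly factors without the Nduf prefix, 1 was lower after TAC at day 3, 3 at day 11 and 5 at day 28, beside 3.33%, 7.73% and 6.98% of all genes. The list was led at day 28 by Aifm1, which helps import and assembly of respiratory chain proteins and changed by −0.26, −0.21 and −0.45 on the 3 days. With JQ1 at day 28 Aifm1 was higher by 0.28 ± 0.07 (adjusted p = 0.00354), the 1 call of the list, where 7.16% of all genes were higher. ND3, the mitochondrially encoded complex I gene named by a probe set of 1 gene, changed by 0.00, −0.06 and −0.01 after TAC and was not called (adjusted p = 0.987, 0.542 and 0.951).

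Known regulators of mitochondrial genes were lower after TAC in 6 of 15 at day 11 and 7 of 15 at day 28, beside 7.73% and 6.98% of all genes, and 0 were called by limma at day 3 (2 had an unadjusted p under 0.05). Ppargc1a, the coactivator of mitochondrial biogenesis, read 11.25, 11.25 and 11.30 in sham and 10.59, 10.52 and 10.54 after TAC at day 11 (−0.72 ± 0.08, adjusted p = 6.88e-07), and 10.91, 11.06 and 10.95 with JQ1 (0.42 ± 0.08 against vehicle, adjusted p = 0.000423). The nuclear receptors Ppara (−0.71) and Esrrb (−0.56) followed in adjusted p after TAC. Esrra, a partner of Ppargc1a, was lower after TAC (−0.28) and higher with JQ1 (0.27). At day 28 Ppargc1a was 0.29 lower after TAC, and the JQ1 arrays at 10.86, 11.02 and 10.93 overlapped those with vehicle at 10.96, 11.01 and 10.98. Nrf1 was higher with JQ1 at days 3 (0.34 ± 0.08, adjusted p = 0.00421) and 11 (0.47 ± 0.08, adjusted p = 0.000157), and was not called at day 28 (0.17, adjusted p = 0.107).

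Markers of other heart cells moved with the same groups. After TAC the 10 fibroblast markers had medians of 0.37, 0.81 and 0.73 at days 3, 11 and 28, with 4, 7 and 9 called higher, and the 11 macrophage markers 0.48, 0.65 and 1.15, with 5, 10 and 10 higher. With JQ1 both lists had medians below 0, −0.42, −0.54 and −0.48 for fibroblasts (5, 6 and 5 called) and −0.50, −0.53 and −0.44 for macrophages (7, 9 and 7 called). Of all genes 4.22%, 7.8% and 8.13% were higher after TAC at the 3 days, and 7.61%, 8.43% and 12.4% lower with JQ1. The mean fibroblast marker signal was 9.21 to 9.29 in the sham arrays of day 11, 10.18 to 10.30 after TAC with vehicle and 9.69 to 9.79 with JQ1. That of macrophage markers was 8.28 to 8.35, 8.93 to 9.20 and 8.29 to 8.38. Their part in the Nduf differences was not tested.

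Cardiomyocyte markers shifted little beside them. Their medians after TAC were 0.01, −0.04 and −0.08, against −0.14, −0.19 and −0.08 for the Nduf genes. Of the 14, 1 was higher at day 3, 1 lower and 1 higher at day 11, and 2 lower at day 28. Of all genes 4.22% were higher at day 3, 7.73% lower and 7.8% higher at day 11, and 6.98% lower at day 28. With JQ1 the medians of the cardiomyocyte markers were 0.00, 0.06 and 0.02. Of these markers 0, 1 and 0 were called, beside 11.9%, 16% and 19.6% of all genes. The mean signals of the cardiomyocyte markers, given above, lay near the array maxima of 14.1 to 14.2. Whether differences are damped at such signals was not tested. Both measured red blood cell markers, Alas2 and Slc4a1, were higher with JQ1 at day 28 (1.22 and 0.79), where 7.16% of all genes were higher. Endothelial markers were lower in 6 of 10 with JQ1 at day 28, with a median of −0.34, beside 12.4% of all genes lower.

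**Figure D5:**
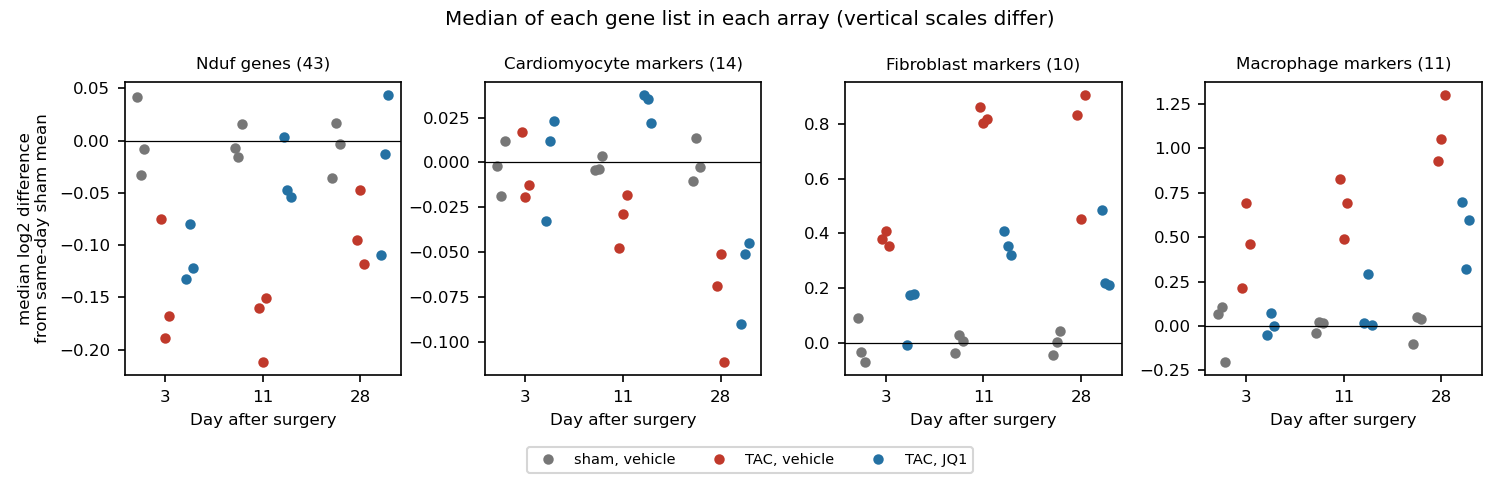
Median log2 difference from the same-day sham mean of the 43 Nduf genes and of cardiomyocyte, fibroblast and macrophage markers, 1 point per array, by day and group; the vertical scales differ. At day 11 the TAC vehicle arrays lay at −0.21 to −0.15 for the Nduf genes, at −0.05 to −0.02 for cardiomyocyte markers and at 0.80 to 0.86 for fibroblast markers.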

How the data were processed

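RNA of 27 mouse heart samples was measured on whole-transcript arrays with the Ambion WT Expression Kit and Affymetrix labelling, per the labels' protocols. The authors deposited log2 signals for 34760 probe sets on each array, ranging from 1.67 to 14.2, which were used as deposited. No source used here states their normalization. The submitters' processing notes name limma. Of the probe sets 21640 named 1 gene and 1321 named several.

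One mean per group was fitted to all 27 arrays with lmFit and eBayes (limma 3.58.1, R 4.3.3, 18 residual and 4.9 prior degrees of freedom), first tested on simulated data, and p-values were adjusted over the 19937 genes. Members and lists were chosen with earlier results of these data known. Genes given array by array are the 3 called members with the smallest adjusted p per comparison and direction, the extremes of mean level (2 at either end), called members against the majority, and Ndufa4 and Ndufa4l2; Ndufb10, Ndufa8, Ndufaf2, Ndufb2 at day 28 and Ppargc1a were added after their values were seen. Alternatives were quantile normalization, centring, leaving out the dimmest genes (1 in 3), the mean of probe sets, trended and robust eBayes, array weights, only the groups compared, a replicate block and leaving out each array. In no comparison did all 3 same-numbered pairs correlate above 0.1 in their deviations from the group means. Closest was TAC day 28 (r = 0.307, 0.131 and 0.0918). TAC day 11 had 0.00635, 0.433 and 0.5, so 1 pair alone kept it under this rule, and JQ1 day 11 had −0.033, −0.194 and −0.462. By this rule the numbers were taken as names, which does not exclude a pairing. Promoter windows come from RefSeq (GRCm38.p6). Python 3.11.15, pandas 2.3.3 and matplotlib 3.10.9 were used for motifs and figures.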

Additional observations from a re-analysis of the deposited data

How the results depend on the processing

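Counts of called Nduf genes depended on settings: 56 counts moved by over 1.5 times and 191 did not. Direction was scored only for genes already called, and 0 of those results reversed. A called gene is unlikely to change sign under such settings, so this 0 does not show that the directions of all 43 genes held. TAC against sham at day 3 (6) gave 10 after quantile normalization or without the dimmest genes, 13 with trended and robust eBayes, 11 with array weights, and 0 with only the groups compared. Day 11 (18) gave 9 with only the groups compared. JQ1 against vehicle gave, at day 3 (0), 1 without the dimmest genes or with array weights; at day 11 (16), 10 after quantile normalization and 8 with only the groups compared; at day 28 (7), 3 with arrays centred, 13 without the dimmest genes or with trended eBayes, and 0 with only the groups compared. JQ1-treated TAC against sham gave, at day 3 (14), 8 with arrays centred and 0 with only the groups compared; at day 11 (0), 3 after quantile normalization, 2 without the dimmest genes or with trended eBayes, and 6 with array weights; at day 28 (9), 15 with array weights and 1 with only the groups compared. The tests between days (0 each) gave 1 without the dimmest genes or with trended eBayes and 3 with array weights for TAC, 1 with trended eBayes and 6 with array weights for JQ1, and 9 with array weights for sham. With only the groups compared fewer arrays estimate the spread; the cause of the other shifts was not tested.

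With the replicate number as a block the counts were 5, 17 and 8 for TAC at days 3, 11 and 28 and 24 for the mean, 0, 11 and 6 for JQ1 and 14 for the mean, and 9, 0 and 4 for JQ1-treated TAC against sham, where those of days 3 and 28 moved by over 1.5 times. The tests between days stayed at 0. By the labels the arrays share only a number.

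Leaving out 1 array at a time gave 1 to 10, 9 to 15 and 8 to 11 for TAC at the 3 days and 23 to 29 for their mean. It gave 0 to 1, 5 to 11 and 3 to 7 for JQ1 and 13 to 19 for the mean, and 2 to 15, 0 to 1 and 2 to 6 for JQ1-treated TAC against sham. The tests between days gave 0 to 1 for TAC and 0 for JQ1 and sham. For the genes given array by array under the naming rule, 16 values lost their call and 364 did not, and 7 of the 16 were Ndufa2 at day 28. Over all called members, those that lost their call in at least 1 alternative were 6 of 6, 11 of 18 and 2 of 10 for TAC at the 3 days, 13 of 16 and 7 of 7 for JQ1 at days 11 and 28, and 14 of 14 and 8 of 9 for JQ1-treated TAC against sham at days 3 and 28.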
